A study of Mus musculus with 272 samples.

Results

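The 30 libraries described here are the sucrose gradient fractions of mouse morulae: 3 gradients, lettered A to C, of 10 fractions each. They were chosen by their labels alone, and they are 30 of the 240 fraction libraries and 30 of the 272 libraries in the whole series. The series follows 8 stages from the germinal vesicle oocyte to the blastocyst. Each stage has 3 gradients, each loaded with about 100 oocytes or embryos, and 4 transcriptome libraries, each from a pool of 20. Oocytes and embryos of all stages were lysed with a nonionic detergent and 100 µg/ml cycloheximide, which holds ribosomes on their transcripts. The cleared lysates were spun through 10 to 40% sucrose and cut into 10 equal fractions, and the RNA of each fraction was amplified with a poly(A)-based Smart-seq kit. No strain or culture condition is given in the sources used here, and the embryos of a gradient were pooled before lysis, so the unit of replication is the gradient. Nothing says that the gradients came from separate collections of embryos, so the p-values measure the spread between these 3 gradients.

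In a sucrose gradient, free ribonucleoprotein stays near the top and a transcript sediments further with each ribosome it carries, so a short coding sequence that is full of ribosomes stops before a long one. The morula is the embryo in which blastomeres compact and the outer cells begin the trophectoderm programme while inner cells keep a pluripotent one. It makes its own ribosomes and proteins from embryonic transcripts, the maternal ones having been largely cleared. The labels number the fractions and give no absorbance trace, so fractions 6 to 10 are called the heavy side and fractions 1 to 5 the light side by convention.

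Markers of the labelled stage were present. All 6 trophectoderm genes in the table (Cdx2, Gata3, Tfap2c, Tead4, Krt8 and Krt18) and all 5 pluripotency genes averaged at least 1 CPM (the authors' read counts scaled to each library's total) over the fractions, with summed levels of 1176 to 2090 CPM and 1103 to 1470 CPM on the heavy side. Most of the pluripotency sum was Pou5f1, with 846, 1248 and 1093 CPM, while Sox2 had at most 3.78 CPM on the heavy side. Klf4 was lower on the heavy than on the light side in each gradient, and Sall4 in gradients B and C. In the transcriptome pools the 6 trophectoderm genes summed to 302 to 359 CPM and the 5 pluripotency genes to 225 to 295 CPM. The reason for these lower sums was not tested. The 6 oocyte genes summed to 19.4 to 24.1 CPM on the heavy side and 36.7 to 105 CPM on the light side, most of it Zp3 and Gdf9. The 9 genes of the 2-cell burst summed to at most 5.80 CPM, with Usp17la and Usp17lc at 0 in every fraction. Of cumulus markers the table held Fshr, at 0, and Cyp19a1, at most 0.326 CPM. The haemoglobin gene Hba-a1 gave 24.7 to 45.8 CPM on either side and at most 39.3 CPM in the transcriptomes, and its part in any result was not tested.

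Depth was lowest at the top of the gradient. Fraction 1 held 0.465 to 0.920 M reads, fraction 2 held 3.01 to 15.5 M and fractions 3 to 10 held 9.13 to 43.8 M, with 5518 to 9152 genes at 1 CPM or more per library. Because every library was scaled to its total separately, the values give what share of a fraction's RNA a gene makes up and not how much RNA the fraction held. In pooled embryos, fewer cells that use a gene and less RNA per cell cannot be told apart. Libraries of the same fraction from different gradients correlated at 0.615 to 0.838 (Pearson's r of log2 values across genes, a description).

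On the heavy side 1049 of 10962 genes tested were higher (9.57%) and on the light side 735 were higher (6.7%). Both shares are the background against which the list counts below are to be read. A gene was called when the mean of fractions 6 to 10 and that of fractions 1 to 5, paired by gradient, differed by at least 1 on the scale of log2(CPM + 1), with a limma Benjamini-Hochberg adjusted p under 0.05. All differences below are heavy minus light on that scale unless said otherwise, and the median over all genes was 0.18. The counts depended on the gradients and on the method. Without gradient B they were 388 and 278, without fraction 1 they were 899 and 366, and edgeR on the recovered reads gave 240 and 305. For edgeR and DESeq2 reads were summed over a side, so fraction 1 with its few reads weighed little there. With quantile normalization 46.2% of the calls were on the heavy side, against 58.8% here.

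Genes took up distinct positions. The centre of a gene, its CPM-weighted mean fraction, had a median of 5.84 over the 8124 genes with at least 5 CPM on average, where a flat profile gives 5.5. The 5th to 95th percentiles ran from 3.18 to 7.50, with a median SD over gradients of 0.574. Across these genes the centres of 2 gradients correlated with Spearman's rho of 0.562 to 0.635, and the points share libraries and depth. Of 4761 genes that peaked in the same fraction in at least 2 gradients, 1253 peaked in fraction 10 and 957 in fraction 1, and only 154 in fraction 2.

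The most abundant gene of each peak fraction is given next, and the order of their peaks is set by that choice. Rpl41, a ribosomal protein with one of the shortest coding sequences known, led fraction 1 with 39808 ± 3699 CPM (SD, n = 3), with 13240 ± 4592 in fraction 3 and 32677 ± 10017 in fraction 5. Ftl1, the ferritin light chain, led fraction 2 and Rplp0, a protein of the ribosomal stalk, fraction 3. Rnf7, a RING subunit of cullin ligases, led fraction 4 with 2352 ± 487 CPM and Slc25a39, a mitochondrial carrier, fraction 5 with 5772 ± 1352. Rpl41 was called on the light side with -1.05, and turned to 0.28 with quantile normalization. Map1lc3b, the autophagosome protein LC3B, peaked in fraction 6 with 10516 ± 2282 CPM, and Dppa5a, a small RNA-binding protein of pluripotent cells, in fraction 7 with 13559 ± 567. Eif5a, the factor that helps ribosomes past difficult peptide bonds, peaked in fraction 8 with 16902 ± 2242 CPM. Pmm1, a phosphomannomutase, led fraction 9 with 5732 ± 1428 CPM and Alppl2, an alkaline phosphatase of early embryos, fraction 10 with 6593 ± 2678.

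**Figure D1:**
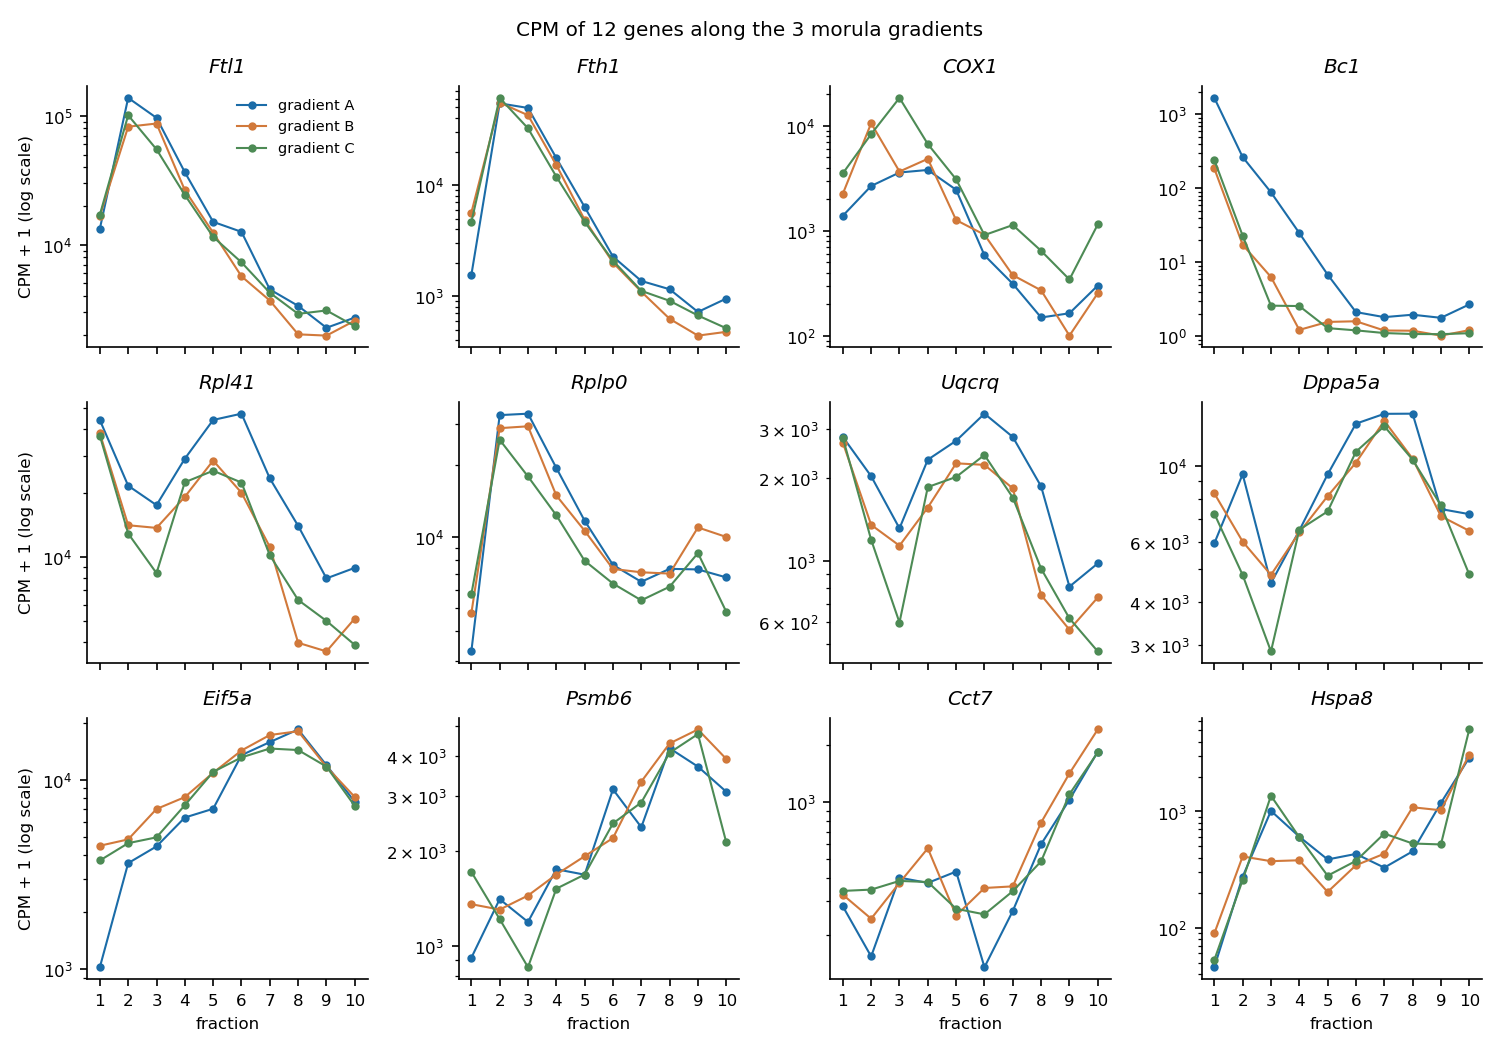
CPM + 1 (log scale) of 12 genes in fractions 1 to 10 of the 3 morula gradients, 1 line per gradient. Ftl1 and Fth1 peak in fractions 2 and 3, Dppa5a in fraction 7, Eif5a in fraction 8 and Cct7 in fraction 10, and Rpl41 and Uqcrq are high both in fraction 1 and around fraction 6.

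The genes of the proteasome, the complex that degrades tagged proteins, lay together on the heavy side. Of 37 subunits tested, 28 were higher there and none was higher on the light side; their median difference was 1.37, against 0.18 for all genes. Psmb6, the most abundant member and a catalytic subunit, had 3312, 3743 and 3249 CPM on the heavy side of gradients A, B and C and 1388, 1541 and 1396 CPM on the light side. The sides did not overlap, and the difference was 1.25 ± 0.10 (SE, adjusted p = 0.000748). The regulatory-particle subunit Psmd12 had the largest difference of the list, 2.74 ± 0.25 (adjusted p = 0.00111), from 214, 163 and 183 CPM against 24.1, 23.0 and 34.9 CPM. Psmd13 and Psma1 followed with 2.51 and 2.22. The subunits lay around a median centre of 7.03, and their median share was 6.6% of summed CPM in fraction 6 and 15.6%, 18.2% and 22.1% in fractions 8, 9 and 10. Leaving out gradient A, B or C left 27, 24 and 27 of them called on the heavy side; edgeR called 18, and a fit over all 8 stages 9.

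Chaperone transcripts had their largest shares in fraction 10. All 8 subunits of TRiC, the ring that folds actin and tubulin, had positive differences, 4 were called on the heavy side (1 in the fit over 8 stages) and the median was 1.14. Cct7 had 247 ± 109 CPM in fraction 6 and 623 ± 149, 1186 ± 208 and 2040 ± 337 CPM in fractions 8, 9 and 10. A median of 34.3% of the subunits' summed CPM lay in fraction 10 alone. Of 19 heat shock chaperones 5 were higher on the heavy side and none on the light side (median 0.57), and edgeR called 2. Hspa8, the constitutive Hsp70, had 1061, 1195 and 1431 CPM on the heavy and 464, 290 and 510 CPM on the light side, a difference of 1.57 ± 0.18 (adjusted p = 0.00233). Its cochaperone Dnaja1 differed by 2.03 and the small heat shock protein Hspb1 by 1.52.

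**Figure D2:**
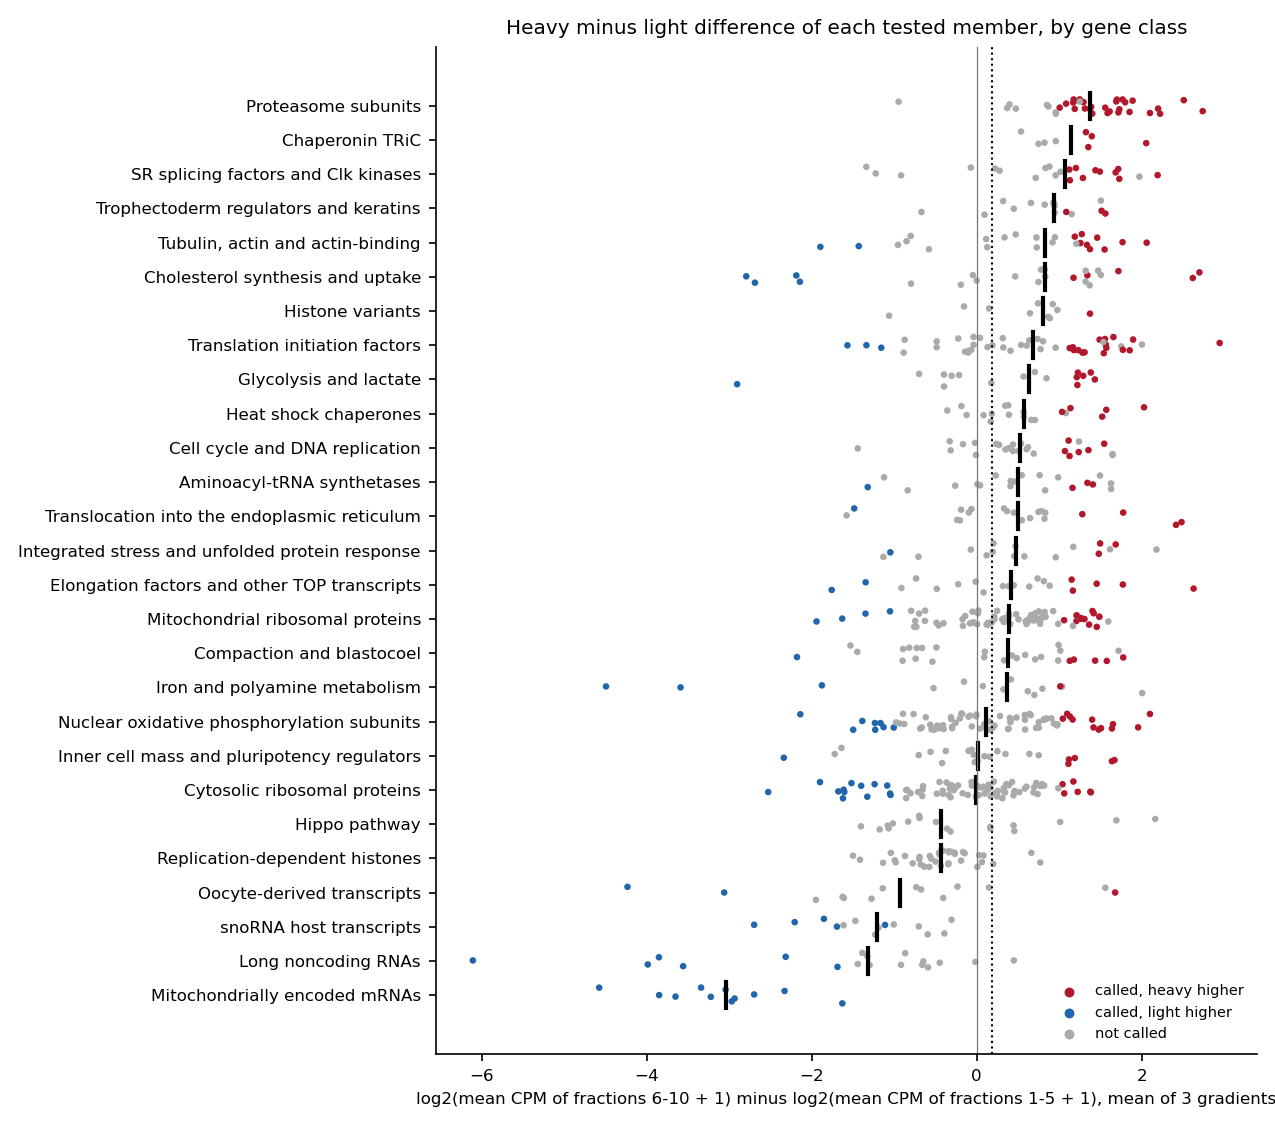
Heavy minus light difference (log2 of mean CPM + 1, mean of 3 gradients) of every tested member of 27 gene classes; each point is a gene, coloured by its call, black bars are class medians and the dotted line is the median of all genes, 0.18. Proteasome subunits have the highest median, 1.37, and mitochondrially encoded mRNAs the lowest, -3.04.

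The 10 genes with the largest heavy excess, of those with at least 10 CPM, were Sdcbp, Riok2, Leo1, Ttc5, Rnh1, Ltv1, Ddias, Pramel30, Tuba3a and Nmd3. Sdcbp (syntenin-1) was first with 4.07 ± 0.67, from 56.5, 57.0 and 60.3 CPM on the heavy side against 11.6, 0.861 and 0.863 CPM on the light side. Riok2, a kinase of late small-subunit maturation, had 39.5, 34.4 and 39.7 CPM on the heavy side and 0.0291, 1.93 and 8.03 CPM on the light side, a difference of 3.69 ± 0.69 (adjusted p = 0.0124). Ltv1, which works at the same step, differed by 3.43, and Nmd3, the export adaptor of the large ribosomal subunit, by 3.27. Leo1 is a subunit of the PAF elongation complex, Rnh1 the cytosolic ribonuclease inhibitor and Tuba3a an alpha-tubulin. In each of the 10 genes every heavy value was above every light value, and 8 of them peaked in fraction 10. The genes were ranked by this difference and had 1 sign in 3 gradients, so neither trait is a result. Of genes that peaked in the same fraction in at least 2 gradients, 26.3% did so in fraction 10.

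Cytosolic ribosomal protein mRNAs, which begin with the pyrimidine tract that ties their translation to growth signals, were spread along the whole gradient. Of 82 tested, 6 were higher on the heavy side and 13 on the light side, and the median difference was 0.00 (-0.22 with quantile normalization). Heavy calls were fewer with other methods: edgeR and DESeq2 each called 1 heavy and 15 light, and quantile normalization 3 and 14. Rps2 had the largest light excess of the list, with 1244, 1304 and 1264 CPM on the heavy and 8713, 7139 and 6317 CPM on the light side, a difference of -2.53 ± 0.13 (adjusted p = 0.000144). Its level was 16743 ± 3488 CPM in fraction 2 and 1319 ± 331 in fraction 6. Rpl39, Rpl12 and Rps29 followed with -1.90, -1.68 and -1.62. Called on the heavy side with limma were Rps9, Rpl4, Rpl8, Rps3a1, Rps3 and Rpl15, with 1.04 to 1.38. Rplp0 had 29000 ± 3475 CPM in fraction 2, 6324 ± 854 in fraction 7 and 8935 ± 1865 in fraction 9; the last gap was not tested. The list made up 15.6% of all CPM in fraction 1 and 7.50% in fraction 10. Reads of ribosomal protein genes and of ferritin can be shared with their processed pseudogenes, so single values of these families are less certain than those of other genes.

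Other transcripts of the translation machinery had calls on both sides. Among 20 elongation factors and further mRNAs with a pyrimidine tract, 5 were higher on the heavy side and 2 on the light side (median 0.42); quantile normalization gave 4 and 4 (median 0.13) and DESeq2 4 and 3 (median 0.19). Hnrnpa1, a splicing repressor, differed by 2.63 ± 0.28 (adjusted p = 0.0017), and Rack1, a scaffold on the small subunit, by 1.46. Ybx1, a protein that packages silent mRNA, went the other way with -1.76, as did Pabpc1, the poly(A)-binding protein, with -1.35. The core elongation factor Eef1a1 was even (0.08), and Eef2 passed the p threshold but not that of size (-0.91 ± 0.13, adjusted p = 0.00537). Of 46 initiation factors, 16 were higher on the heavy side and 3 on the light side (median 0.69), and edgeR called 8 and 2. Eif3m was highest with 2.95 ± 0.31 (adjusted p = 0.0017), from 159, 95.6 and 103 CPM against 13.7, 12.4 and 16.8 CPM. Eif5a had 13432, 13838 and 12195 CPM on the heavy and 4483, 7053 and 6326 CPM on the light side, a difference of 1.17. The 3 on the light side were Eif4ebp2, a repressor of the cap-binding factor (-1.57), Eif3c (-1.34) and Eif1 (-1.16). Of 20 aminoacyl-tRNA synthetases 3 were higher on the heavy side (Sars, Farsa and Nars, 1.41, 1.34 and 1.16) and Vars on the light side with -1.32; edgeR called none of them heavy. The limma calls were 15% and 5% of the synthetases, against 9.57% and 6.7% of all genes.

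Mitochondrially encoded mRNAs, which are read by the organelle's own ribosomes, were on the light side without exception among those tested. All 11 that passed the filter were called there, with a median of -3.04; ATP8 and ND4L were too low to test. COX1, a core subunit of cytochrome c oxidase, had 2783, 4523 and 8026 CPM on the light and 301, 383 and 836 CPM on the heavy side, a difference of -3.34 ± 0.12 (adjusted p = 4.83e-05). COX3 had the largest difference, -4.58 ± 0.41, and ND5 the smallest, -1.63 ± 0.29. Their position within the light side differed between gradients: they made up 1.69%, 0.648% and 8.05% of reads in fraction 3 of gradients A, B and C, and 1.53%, 1.87% and 2.88% in fraction 2. Fraction 3 held their highest level in gradients A and C, and fraction 2 in gradient B. The median share of 26.7% of summed CPM in fraction 3 averages over these unlike gradients. ND6 lies on the other strand within the compact mitochondrial genome and neighbouring genes overlap there, so these values cannot be fully told apart between genes.

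The nuclear genes for the same respiratory complexes were spread differently. Of 81 tested, 12 were higher on the heavy side (14.8%) and 8 on the light side (9.88%). Over all genes these shares were 9.57% and 6.7%. The median of the list was 0.12. The sign of this median turned with quantile normalization (-0.14; 8 heavy and 12 light), edgeR (-0.18; 6 and 7) and DESeq2 (-0.19; 8 and 7). Their median share was highest in fraction 6, at 13.2%, with 9.28% in fraction 1 and 6.03% in fraction 3. The summed level of the list was as high at the top: 3.78% of reads in fraction 1, 1.82% in fraction 3 and 3.72% in fraction 6 (means of 3 gradients). Within the heavy side, 39 of 81 were higher in fractions 6 and 7 than in 9 and 10 while 10 were lower. The calls went both ways within a complex. Uqcrc2 and Uqcrfs1, the core and iron-sulphur proteins of complex III, differed by 2.10 ± 0.50 and 1.65 ± 0.19, and Sdhd, a complex II anchor, by 1.96. Ndufs1, the largest subunit of complex I, differed by -2.14 ± 0.33 (adjusted p = 0.00644). Uqcrq, the most abundant member and a small complex III subunit, was not called (-0.40 ± 0.12, adjusted p = 0.0625). Of 77 mitochondrial ribosomal proteins 11 were higher on the heavy side and 4 on the light side, with a median of 0.39 and Mrpl12, the most abundant, at 1.31. These calls were 14.3% and 5.19% of the list, near the shares over all genes. Quantile normalization gave 5 heavy and 7 light calls (median 0.06), edgeR 0 and 6 (median 0.08) and DESeq2 6 and 7 (median 0.07).

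Ferritin transcripts were concentrated in fractions 2 and 3. Ferritin stores iron, and the mRNAs of both chains carry an iron-responsive element in the 5′ UTR, a hairpin with a CAGTGN loop that iron regulatory proteins bind to block initiation when iron is low. Fth1, the heavy chain, had 25832, 24672 and 22895 CPM on the light and 1294, 930 and 1059 CPM on the heavy side, a difference of -4.49 ± 0.11 (adjusted p = 1.43e-05). Ftl1 had 59740, 44963 and 41726 CPM on the light and 5080, 3185 and 3970 CPM on the heavy side, a difference of -3.59 ± 0.11 (adjusted p = 2.15e-05). No light value of either gene came near a heavy one. Ftl1 had 15682 ± 2089 CPM in fraction 1, 106900 ± 28155 in fraction 2 and 2541 ± 195 in fraction 10. Its mean in the 4 transcriptome pools was 837 ± 209 CPM, below its mean in each of the 10 fractions. Those pools were amplified from whole embryos, and the reason for the gap was not tested.

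The hairpin letters were looked for in the UTRs of 9992 tested genes, with 1 GENCODE M21 coding transcript per gene (build GRCm38): a C, then 5 bases, CAGTGN and 5 bases that pair with the first 5, on the transcript strand. Only 9 genes (0.0901%) held them in the 5′ UTR, and 61 genes (0.611%) in the 3′ UTR. The windows of both ferritin chains are shown 5′ to 3′ with the loop in capitals, because these genes share both the element and the light position, together with the first of the 4 matches in the 3′ UTR of Tfrc.
Fth1: ctgcttcaaCAGTGCttgaacggaaccc
Ftl1: ttgcttcaaCAGTGTttgaacggaacag
Tfrc: tatcggaagCAGTGCcttccataattat
Slc40a1, the iron exporter ferroportin, also held a match in its 5′ UTR but was below the filter on low values. Among the other genes with a match in the 5′ UTR, Eif2s1 and Mfsd14b were called on the heavy side with 1.57 and 2.37, and Aunip, Ecd, Malt1 and Vti1b were not called. Tfrc, the transferrin receptor, whose 3′ elements protect the mRNA from decay, was on the light side too, with 36.3, 44.7 and 114 CPM against 3.99, 18.1 and 40.7 CPM (-1.88 ± 0.42, adjusted p = 0.023). These ranges overlap between gradients, although light exceeded heavy in each. Over the 14 tested genes of iron and polyamine metabolism the calls were 1 on the heavy side, Srm (spermidine synthase, 1.01), and 3 on the light side, and the median was 0.37 (-0.12 with edgeR and -0.13 with DESeq2, which did not call Srm).

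Noncoding transcripts lay toward the light side. Of 301 annotated long noncoding RNAs tested, 84 were higher on the light side and none on the heavy side, with a median of -0.90. Of 37 small RNA genes 19 were on the light side and none on the heavy side, and of 10187 protein-coding genes 586 and 1029. Only 10 of the 37 had enough CPM for a centre, and its median was 1.68. The libraries were poly(A)-based, and what form of these RNAs the reads came from was not tested. Neither noncoding class was counted without fraction 1, whose omission took the light calls over all genes from 735 to 366. Within the list of known long noncoding RNAs, 6 of 18 were called, all light, and 2 with edgeR. Bc1, a small cytoplasmic RNA that represses translation in neurons, had 410, 41.4 and 53.3 CPM on the light and 1.08, 0.247 and 0.114 CPM on the heavy side (-6.11 ± 0.63, adjusted p = 0.00155). Ftx, a gene of the X-inactivation centre, Rn7sk, which holds back a transcription kinase, and Neat1, the scaffold of paraspeckles, differed by -3.99, -3.85 and -3.56. Malat1, another nuclear RNA, was not called (-0.45). All 14 host transcripts of small nucleolar RNAs had negative differences and 5 were called light (median -1.21), 3 with edgeR. Their median shares were 20.1% in fraction 1, 9.35% in fraction 3 and 14.7% in fraction 5. Gas5, the most abundant host, had 381, 407 and 444 CPM on the light and 140, 87.8 and 117 CPM on the heavy side, a difference of -1.85 ± 0.20.

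The genes with the largest light excess turned on fraction 1. They were Arl5c, Bc1, Dhdh, Trpm2, Rmdn2, Lgi1, Proser3, Slc13a4, Mir5128 and Retn, with differences of -6.42 to -5.38. Arl5c, an ARF-like GTPase, had 2923, 939 and 1453 CPM on the light and 48.8, 10.4 and 10.2 CPM on the heavy side. Between 77.4% (Slc13a4) and 94.6% (Lgi1) of the summed CPM of each gene lay in fraction 1, the fraction with the fewest reads. Without it 9 of the 10 were still called, with differences of -3.87 (Arl5c) to -2.76 (Proser3), and Lgi1 was not (-1.84, adjusted p = 0.109).

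**Figure D3:**
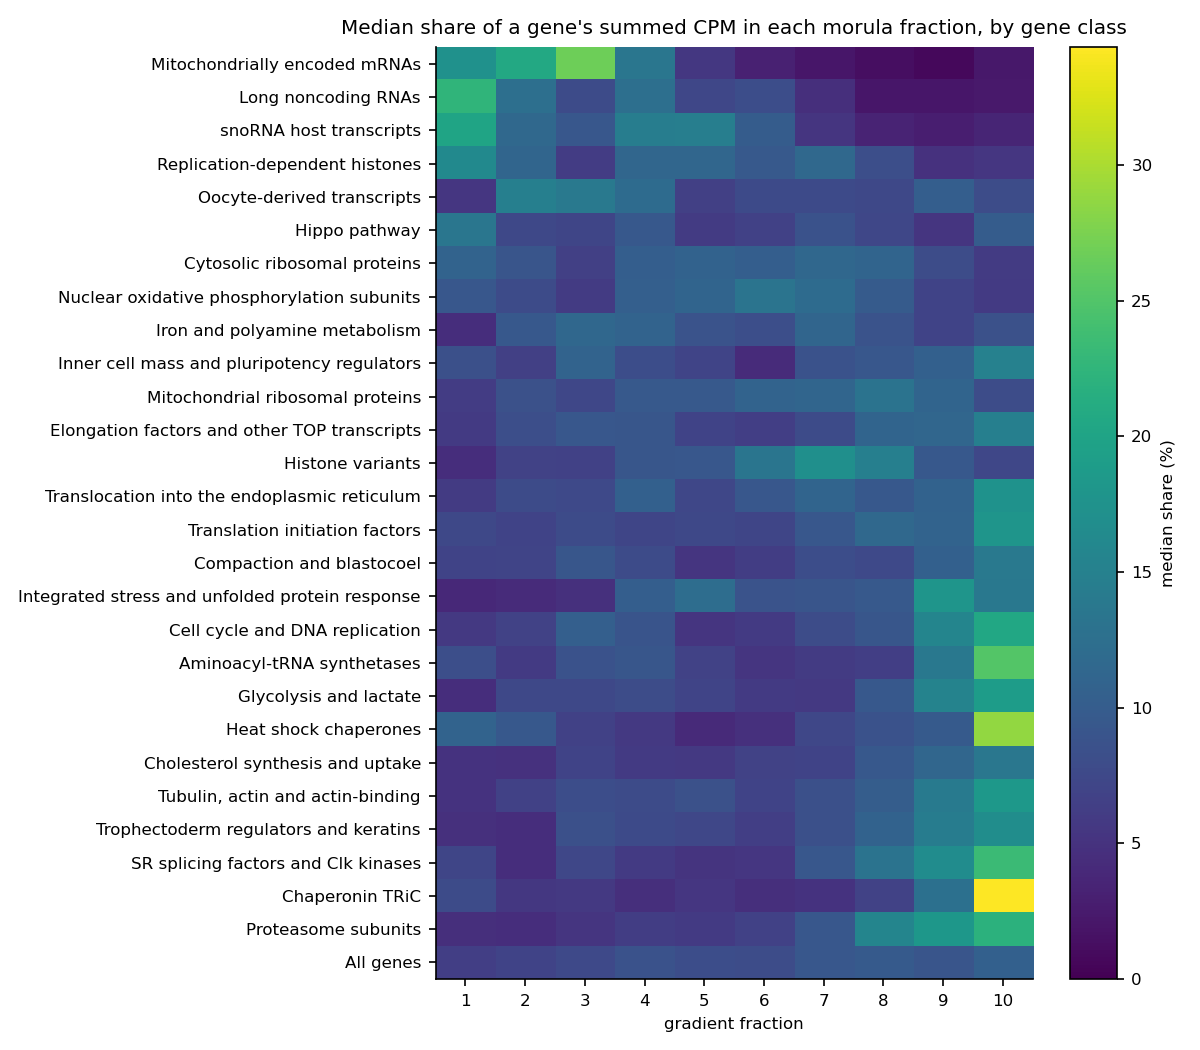
Median share (%) of a gene's summed CPM that lies in each of the 10 fractions, mean of 3 gradients, for 27 gene classes ordered by median centre and for all genes with a profile. Mitochondrially encoded mRNAs hold 26.7% in fraction 3, where the gradients differed, and proteasome subunits hold 22.1% and TRiC subunits 34.3% in fraction 10.

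Regulators of the first lineages were mostly on the heavy side where limma called them. Of 15 trophectoderm regulators and keratins 3 were higher there and none on the light side (median 0.94), and edgeR called 1. Cdx2, the transcription factor that sets up trophectoderm, had 298, 169 and 223 CPM on the heavy and 77.9, 70.7 and 77.3 CPM on the light side, a difference of 1.56 ± 0.22 (adjusted p = 0.00434). Krt8 and Krt18, the keratin pair of the first epithelium, differed by 1.51 and 1.09. Of 23 inner cell mass and pluripotency regulators 5 were higher on the heavy side and 1 on the light side, with a median of 0.01; edgeR and DESeq2 each called 2 and none, with medians of -0.21 and -0.27. Pou5f1 (Oct4) had 846, 1248 and 1093 CPM on the heavy and 294, 348 and 346 CPM on the light side, a difference of 1.67 ± 0.14 (adjusted p = 0.000748). Nanog (1.12), Zfp42 (1.64) and Dppa2 (1.19) were also called, and the receptor Fgfr1 was called light with -2.34. Dppa3 (Stella), the most abundant of the list, was even, with 7121, 2653 and 3267 CPM against 3338, 3589 and 4232 CPM (0.09 ± 0.28).

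Genes of the Hippo pathway, which reads cell position to allow or block the trophectoderm programme, gave no call among 18 tested with limma (median -0.43), while DESeq2 on the recovered reads called 3 on the heavy and 2 on the light side. Wwtr1 (TAZ), the most abundant, had 383, 275 and 190 CPM on the heavy and 279, 309 and 451 CPM on the light side, which overlap. Tead4, the pathway's DNA-binding partner, was flat (0.10 ± 0.20). Of 28 genes of compaction and the blastocoel, 5 were higher on the heavy side and 1 on the light side (median 0.38), and edgeR called 1 and 1. The limma calls were 17.9% and 3.57% of the list, against 9.57% and 6.7% of all genes. The water channel Aqp3, the junction adhesion molecule F11r and the claudin Cldn4 were on the heavy side, and Myh9, the heavy chain of nonmuscle myosin, on the light side (-2.18). Oocyte-derived transcripts had a median of -0.93 over the 14 of 26 that could be tested. Gdf9, an oocyte growth factor, had 38.7, 12.9 and 24.2 CPM on the light and 0.487, 0.160 and 0.210 CPM on the heavy side (-4.23 ± 0.61, adjusted p = 0.00484), and Npm2, which remodels sperm chromatin, differed by -3.06. Khdc3, a member of the subcortical maternal complex, went the other way with 813, 1270 and 1323 CPM on the heavy and 235, 420 and 418 CPM on the light side (1.68 ± 0.13).

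Metabolic genes differed within a pathway. Of 16 glycolytic genes 6 were higher on the heavy side, among them Ldha (1.43 ± 0.35) and Pgam1 (1.38 ± 0.20); edgeR, DESeq2 and the fit over 8 stages called none of the 16 heavy. Ldhb, the lactate dehydrogenase chain that dominates in oocytes, was light, with 30.0, 38.2 and 47.9 CPM against 3.25, 4.82 and 4.75 CPM (-2.90 ± 0.45, adjusted p = 0.00631). Of 23 cholesterol genes 5 were heavy and 4 light (median 0.82), and 1 and 1 with edgeR. The enzymes Lss and Idi1 differed by 2.70 and 2.62, whereas Srebf2, the transcription factor that drives the pathway, differed by -2.79 ± 0.28 (adjusted p = 0.00138) and the oxidase Msmo1 by -2.69. Of 17 genes of the stress responses, 3 were heavy and 1 light (median 0.47); edgeR called 1 heavy and the fit over 8 stages none. The serine synthesis enzyme Phgdh differed by 1.69 and Xbp1, a transcription factor of the unfolded protein response, by 1.48. Atf4, whose upstream reading frames hold ribosomes off its coding sequence unless cells are stressed, was light with 283, 482 and 414 CPM against 188, 194 and 173 CPM (-1.05 ± 0.20, adjusted p = 0.0128). Of 20 genes for entry into the endoplasmic reticulum, 4 were heavy, led by the disulphide isomerases Pdia4 (2.48) and Pdia3 (2.42), and Sec61g, the small translocon subunit, was light (-1.48). edgeR called 1 heavy and 1 light there, with a median of 0.08.

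Splicing, cytoskeletal and cell cycle genes had mostly heavy calls with limma, and fewer with edgeR. Of 22 SR splicing factors and Clk kinases 10 were higher there and none on the light side (median 1.07), led by Srsf1 with 2.19 ± 0.47 (adjusted p = 0.0191), and edgeR called 2. Of 24 tubulin, actin and actin-binding genes 9 were heavy and 2 light (median 0.82), whereas edgeR called 1 heavy and 4 light, and DESeq2 and quantile normalization 6 and 4. The Arp2/3 subunits Actr2 and Actr3 differed by 2.06 and 1.55, and the beta-tubulin Tubb2a by -1.89. Of 26 cell cycle and replication genes 6 were heavy and none light (median 0.52), among them Cdk2 (1.55) and Cdk1 (1.24); edgeR and quantile normalization called 1 each, and the fit over 8 stages none. Replication-dependent histones, whose mRNAs end in a stem-loop and not in poly(A), gave no limma call among 38 tested of 56 in the table (median -0.44, 7 positive and 31 negative); DESeq2 called 1 on the light side and quantile normalization 3. Of 10 histone variants only H2ax was called (1.37 ± 0.13), with 3 called without gradient C and none with edgeR or DESeq2. That call is 10% of the variants, near the 9.57% of all genes called heavy.

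Many of these counts were lower when a gradient was left out, most often gradient B. Such a fit holds only 2 gradients, so a lower count cannot be assigned to the gradient B libraries themselves. Without gradient B the heavy calls were 2 each for SR factors, for tubulin and actin genes, for cell cycle genes, for glycolysis, for cholesterol genes, for the endoplasmic reticulum and for pluripotency regulators, 6 for mitochondrial ribosomal proteins, 10 for initiation factors, 3 for heat shock chaperones and 1 for synthetases. The light calls without it were 3 for nuclear respiratory genes, 2 for small nucleolar RNA hosts, 2 for cholesterol genes, 1 for initiation factors and none for mitochondrial ribosomal proteins. Without gradient A, elongation factors, heat shock chaperones and pluripotency regulators had 3 heavy calls each and small nucleolar RNA hosts 3 light calls. Without gradient C, cholesterol genes had 3 heavy calls and the hosts 2 light calls. Without fraction 1, light calls were 3 for the known long noncoding RNAs, 2 for the hosts, 4 for nuclear respiratory genes, 2 for mitochondrial ribosomal proteins and 1 for cholesterol genes, and heavy calls were 2 for cholesterol genes and 3 for the cell cycle. Where a list had 1 or 2 calls in a direction, these omissions changed that number by at most 2.

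Position followed coding length, but not in one direction. Protein-coding genes were cut into 10 bins of like size by the coding length of their longest GENCODE M21 coding transcript. The shortest bin, 37 to 170 codons, had a median heavy minus light difference of -0.06, with 32 heavy and 83 light calls among 1020 genes. The median was 0.62 in the third bin (237 to 305 codons), where 205 of 1017 genes were called heavy, and in the next (306 to 366 codons), with 173 of 1004. It was -0.60 in the longest (1102 codons and more), with 10 heavy and 98 light calls among 1012. The median centre of the longest bin was 4.80, and in each gradient it was below that of every other bin. Among named genes, Mdn1, a giant ribosome-maturation ATPase of 5589 codons, had 13.2, 35.8 and 11.3 CPM on the light and 0.0115, 2.49 and 3.0 CPM on the heavy side (-2.95 ± 0.67, adjusted p = 0.0237). Usp34, a deubiquitinase of 3582 codons, differed by -3.04. The shortest genes called heavy, among those of at least 10 CPM, were Mtpn (myotrophin, 118 codons, 1.36) and Snrpd3 (a core snRNP protein, 126 codons, 1.10). Without fraction 1 the longest bin had a median of -0.36, with 37 light calls. Level moved with length, from a median of 64.2 CPM in the shortest bin to 6.46 CPM in the longest, and its part in these differences was not tested.

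**Figure D4:**
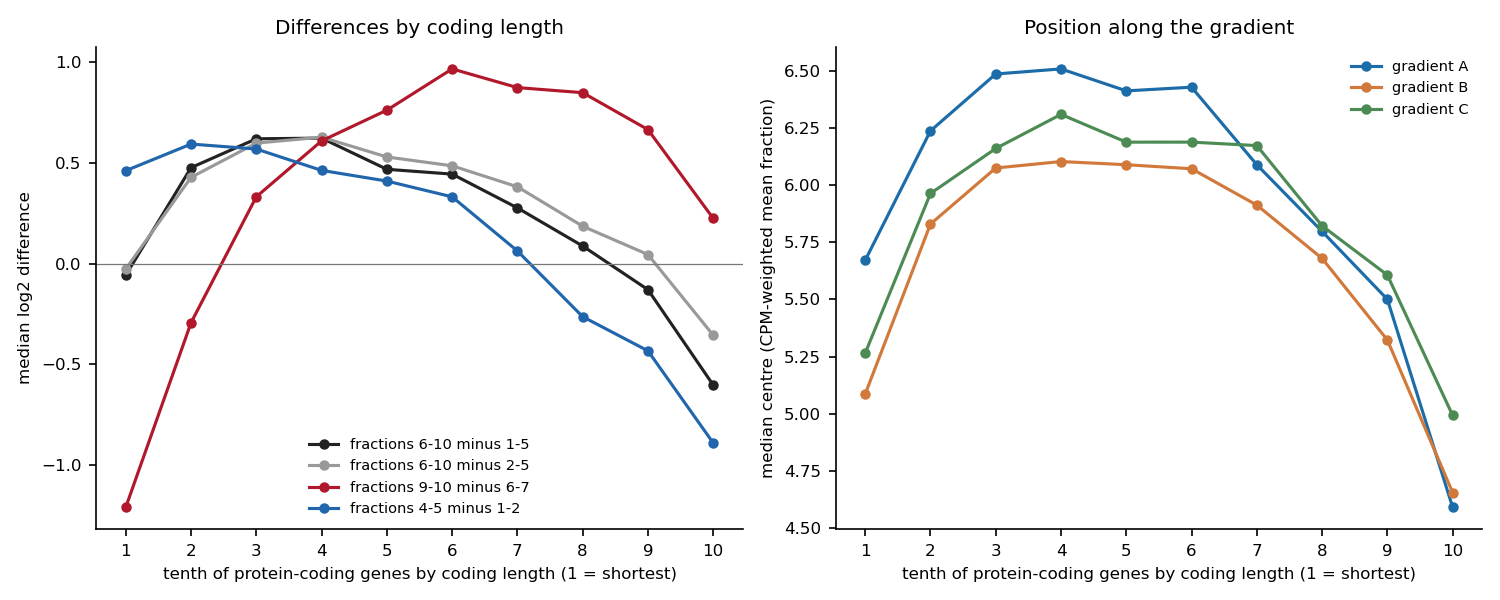
Left, median log2 difference of 4 comparisons between fractions in each of 10 bins of protein-coding genes by coding length; right, median centre in each bin for the 3 gradients. Fractions 9 and 10 against 6 and 7 run from -1.21 in the shortest to 0.97 in the sixth bin, and fractions 4 and 5 against 1 and 2 go from 0.59 in the second to -0.89 in the longest.

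Within the heavy side short coding sequences lay above longer ones. Fractions 9 and 10 exceeded 6 and 7 for 759 of 9511 genes (7.98%) and fell below them for 593 (6.23%). In the shortest bin 1 of 975 genes was higher in fractions 9 and 10 and 351 were higher in 6 and 7, a median of -1.21. In the sixth bin, 439 to 519 codons, 137 of 875 were higher in 9 and 10 and 15 in 6 and 7, a median of 0.97, and in the longest bin the median was 0.22. Across 8910 genes with a length, Spearman's rho was 0.327 (a description, since genes share libraries). By list, 30 of 36 proteasome subunits, 8 of 8 TRiC subunits, 8 of 19 synthetases and 16 of 46 initiation factors were higher in 9 and 10, and 27 of 81 ribosomal proteins were higher in 6 and 7, with medians of 1.41, 2.32, 1.64, 1.04 and -0.79. Uqcrq, with 82 codons, had 3112, 2029 and 2058 CPM in fractions 6 and 7 and 894, 650 and 545 CPM in 9 and 10 (-1.78 ± 0.12, adjusted p = 0.00287). Cct7, with 544 codons, had 200, 356 and 297 CPM against 1443, 1926 and 1471 CPM (2.53 ± 0.16, adjusted p = 0.00287).

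The genes with the largest changes within the heavy side were all of low or middling level. Api5, an apoptosis inhibitor, differed by 5.29 ± 0.97, from 262, 95.2 and 241 CPM in fractions 9 and 10 against 0.445, 16.2 and 3.11 CPM in 6 and 7. Prc1, the midzone crosslinker of the spindle, Cstf2, a cleavage factor, and Dicer1, the microRNA-processing nuclease, differed by 5.02, 4.97 and 4.77. Gfod2, Atf2, Abcg4 and Atp6v0e2 were higher in 6 and 7, with -4.20 to -3.82. For Dicer1 the 3 values in 9 and 10 were 69.7, 16.4 and 17.2 CPM, and those in 6 and 7 were 0, 0 and 0.0907 CPM. With edgeR or with no filter on low values, none of these 8 genes passed. Without gradient B the counts were 245 and 208, and without gradient C 346 and 288.

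Within the light side, fractions 4 and 5 exceeded 1 and 2 for 413 of 9979 genes (4.14%) and fell below them for 479 (4.8%). Mxra8, a matrix adhesion protein, Slc16a5, a monocarboxylate carrier, Cdk10, a cyclin-dependent kinase, and Stard5, a sterol-binding protein, led the first group with 4.95 to 4.89. Stard5 had 33.5, 26.5 and 26.2 CPM in fractions 4 and 5 and no read in fractions 1 and 2, so it was at least 10.3-fold higher against a floor of 3 reads per library. Slc16a5 had at most 2 reads in any library of fractions 1 and 2 and was at least 14.3-fold higher. Lgi1, Bc1, Cxcr2 and Proser3 led the second group with -6.44 to -5.87. Length ordered this side the opposite way: the median was 0.59 in the second bin and -0.89 in the longest, with a Spearman's rho of -0.245 across 9208 genes. The counts were 77 and 123 without gradient A, 142 and 193 without gradient B and 277 and 261 without gradient C, and edgeR called 20 and 81.

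The last comparisons set the morula beside its neighbours in development. The heavy minus light difference of each gradient was compared with that of the 8-cell and blastocyst gradients in 1 limma fit over 9 values, and both comparisons share the 3 morula gradients. Against the 8-cell embryo 58 of 12952 genes (0.448%) lay further to the heavy side in the morula and 28 (0.216%) further to the light side; without morula gradient B these were 3 and 3, and without C 2 and 2. Against the blastocyst 1 gene differed (0.00772%), ND1, which was less light in the morula, and none differed the other way (0%); 817 genes had an unadjusted p under 0.05. ND1 had differences of -2.50, -2.21 and -2.53 in the 8-cell gradients, -3.70, -3.40 and -3.84 in the morula and -5.18, -5.39 and -5.29 in the blastocyst. The 3 stages did not overlap, although for morula and blastocyst this was a condition for naming the gene. The morula minus 8-cell and morula minus blastocyst contrasts were -1.24 ± 0.16 (adjusted p = 0.00929) and 1.63 ± 0.16 (adjusted p = 0.00891). The second was not called in a fit of the 2 stages alone, with quantile normalization, or when morula gradient A or B or any blastocyst gradient was left out.

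Ribosomal protein mRNAs took 9 of the 28 calls toward the light side. The median difference of the 82 genes was 0.40 in 8-cell embryos, 0.00 in morulae and -0.39 in blastocysts, and the morula contrast with the 8-cell embryo was negative for 69 of them. The 9 were Rpl38, Rpl39, Rpl41, Rps21, Rps26, Rps27, Rps28, Rps29 and Rpsa. Rpl41 had differences of 0.82, 0.48 and 0.68 in the 8-cell and -0.62, -1.37 and -1.15 in the morula gradients, a contrast of -1.71 ± 0.16 (adjusted p = 0.00279). Rpsa had 0.41, 0.41 and 0.84 against -1.21, -1.0 and -1.04, a contrast of -1.64 ± 0.15. Of the 9, 3 were called in a fit of the 2 stages alone and 4 with the gradient letter as a block across stages, and 2 without morula gradient B or C. COX1 (-1.60 ± 0.18) and the host Gas5 (-1.85 ± 0.28) lay further to the light side in the morula as well.

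In the other direction Psmc2, an ATPase of the proteasome, had -0.74, -0.25 and -1.49 in 8-cell and 2.04, 1.75 and 1.31 in morula gradients, a contrast of 2.53 ± 0.38 (adjusted p = 0.021). The glycolytic enzyme Eno1, the chaperone adaptor Stip1 and the tubulin Tubb6 had contrasts of 1.92, 1.63 and 2.63. Among the largest contrasts were those of Eif4g3, an initiation scaffold (5.28 ± 0.99), Sirt4 (4.27), Mfsd13a (4.15) and Rhbdd2 (4.11), and on the other side Tmem186 (-4.37), Pgpep1 (-3.40) and Med4, a Mediator subunit (-3.21). These 7 genes were named only where the 3 morula and the 3 8-cell values were apart, so that separation is not a result. None of the 7 was called in a fit of the 2 stages alone, with the block, or without morula gradient B or C.

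**Figure D5:**
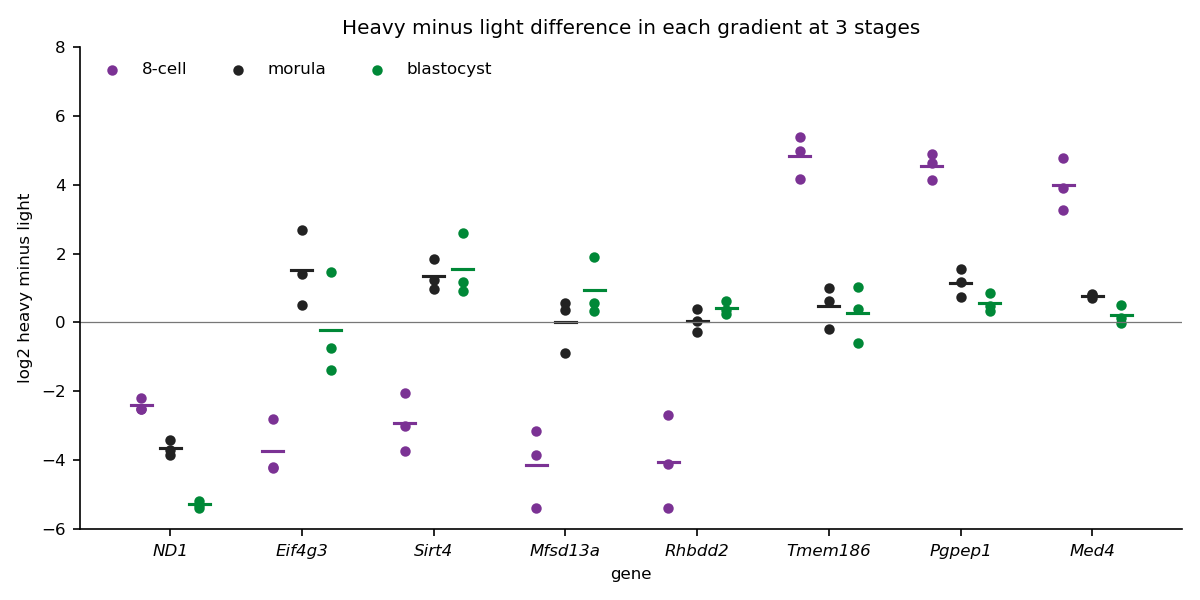
Heavy minus light difference (log2 of mean CPM + 1) of 8 genes in each of 3 gradients of 8-cell embryos, morulae and blastocysts; points are gradients and bars are means. ND1 falls in steps from 8-cell to blastocyst, and the other 7 genes differ between 8-cell embryo and morula.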

How the data were processed

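The authors deposited 1 table of CPM values per gene symbol and library, and per the submitters' processing notes reads were handled with Trim Galore 0.6.7, HISAT2 2.2.1, featureCounts 2.0.1 and edgeR on GRCm39. Some deposited columns of stages other than the morula were recorded as signal, because genes listed under several symbols push their totals too high for CPM. The authors had scaled this signal in the same way. Of 15854 symbols, 159 stood in 76 groups with identical values and 1 of each group was kept, leaving 15771. All morula values were whole multiples of 1 read (100% within 0.05 reads), which gave the depths; reads carry no molecular identifiers, so depths and floors cover counting error only. No 2 replicate libraries agreed within sampling noise (lowest chi-square per degree of freedom 14.9 over 36 pairs).

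CPM was averaged over the fractions of a side, and log2(CPM + 1) was tested with limma 3.58.1 in R 4.3.3 (mean-variance trend, gradient as a block) for genes at 1 CPM or more in at least 3 of 6 means, with Benjamini-Hochberg adjustment over all genes tested. Sides are fractions of the same gradient, so the letter pairs them. Deviations of the sides correlated at 0.168, 0.0999 and 0.126 within gradients A, B and C and at most at 0.0231 between letters. Each deviation was taken from the mean of the same 3 gradients, which ties both kinds of correlation together. Their contrast is therefore no test of the pairing. This scale understates changes of low genes. edgeR 4.0.16 and DESeq2 1.42.0 ran on summed recovered reads as alternatives. Sums of reads weigh deep fractions more, whereas means of CPM weigh each fraction alike. Counts from these methods thus differ from the limma counts in weighting as well as in the test. Tested on simulated data for the heavy against light comparison with 11595 genes, the fit recovered 34.3% of 67 genes changed 2-fold and 100% of those changed 4-fold and 8-fold, with 3 false calls. The simulated reads had the same spread for every gene and a flat level within each side, and that spread was not estimated from these libraries. The recovered shares and false calls therefore hold for that setting and do not give the power in these data.

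Named genes were the 10 per direction with the largest difference among called genes of at least 10 CPM with 1 sign in 3 gradients (4 per direction for the other comparisons), up to 4 called members and the most abundant member of each list, the most abundant gene per peak fraction, and the 2 shortest heavy and 2 longest light coding sequences. For the comparisons between stages, the rule asked that the values of the 2 stages not overlap, in place of 1 sign. Genes named beyond these were chosen after their values were seen. The members and the 27 gene lists were chosen with earlier results of these data known. Symbols without a name (Gm, Rik) were passed over. Mitochondrial symbols were matched to the table's own spelling after it was read. Coding lengths and UTRs are from GENCODE M21 on GRCm38, matched by symbol, and no coordinates are given because that build is not the authors'. No protein table was used. Genes within these rules that are not reported here were left out of the text and figures.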

Additional observations from a re-analysis of the deposited data

Results flagged for a closer look

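These results stand out because the heavy minus light difference of a gene differed between 2 stages by the test of the difference itself (limma, Benjamini-Hochberg adjusted p under 0.05 and at least 1 on the log2 scale). Against the blastocyst ND1 differed by 1.63. Against the 8-cell embryo Eif4g3 differed by 5.28, Sirt4 by 4.27, Mfsd13a by 4.15 and Rhbdd2 by 4.11, all further down the gradient in the morula. Tmem186 differed by -4.37, Pgpep1 by -3.40 and Med4 by -3.21, all further down in the 8-cell embryo. Groups of 3 gradients are too small for a test of single outlying libraries.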

How the results depend on the processing

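For heavy against light, dropping the replicate block from the paired fit gave 905 heavy and 705 light calls instead of 1049 and 735. Heavy calls were 485 with no filter on low values, 240 with edgeR, 354 with all 8 stages in 1 fit and 1732 for the slope along fractions; light calls were 327 with no filter, 305 with edgeR and 366 without fraction 1. Leaving out 1 gradient gave 388 to 833 heavy and 278 to 592 light calls. For fractions 9 and 10 against 6 and 7, no filter gave 255 and 309, DESeq2 1432 and 1186, edgeR 359 in the first direction, and leaving out a gradient 245 to 582 and 208 to 538. For fractions 4 and 5 against 1 and 2, a pseudocount of 0.1 gave 253 and 307, no filter 11 and 94, edgeR 20 and 81, DESeq2 677 and 897, and leaving out a gradient 77 to 277 and 123 to 261. Against the 8-cell embryo, the 2 stages alone gave 3 and 4, the replicate block across stages 8 and 6, quantile normalization 34 in the first direction, and leaving out a gradient 2 to 172 and 2 to 105. Against the blastocyst, the 2 stages alone gave 0 and leaving out a gradient 0 to 1 in the first direction; in the other, a pseudocount of 5 and a filter of 10 CPM gave 1 each and leaving out a gradient 0 to 0. The cause of these shifts was not tested, beyond the smaller number of gradients in the last kind of fit.

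Of the 125 called genes named for heavy against light, 118 stayed called without the block, 55 with edgeR and 76 without gradient B. None of them changed direction except Rpl41, which was 0.28 with quantile normalization. That scaling moved the median of all genes from 0.18 to 0.09. Fraction 1, with under 1 M reads, limits what can be said of low genes at the top of the gradient.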
